A study of Mus musculus with 9 samples.

Results

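Spinal cord of mice with experimental autoimmune encephalomyelitis (EAE) that had been given calcitriol was compared with spinal cord of naive mice. The comparison used 6 of the 9 arrays of the series, 3 of calcitriol-treated EAE (replicates 6, 7 and 8) and 3 of naive cord (replicates 2, 3 and 4), taken by their sample titles, and all 12422 probe sets outside the array's own controls. The mice with EAE were of the B10.PL strain, and the labels name no other strain for the naive controls. The treated mice received 200 ng of calcitriol, also written 1,25(OH)2D3, and their cords were taken 6 h later, while the labels name no injection and no time for the naive mice. The 2 groups therefore differ in both disease and treatment, and the part of each in a difference cannot be told apart from these 6 arrays. The other 3 arrays, of mice with EAE given placebo (replicates 1, 5 and 10) and also taken after 6 h, are given beside the results for that reason. Age, sex, the way EAE was induced and its stage are not given in the sources used here. Calcitriol replicate 6 is titled with the D2 hormone, 1,25(OH)2D2, but described with the D3 form, and it was kept in its group. Nothing in the labels says that replicates of a group came from separate mice, so p-values measure the spread between these samples, which may be technical.

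EAE is an immune attack on brain and cord that is used as a model of multiple sclerosis. In its course T cells specific for myelin enter the cord and recruit monocytes and other leukocytes, resident microglia and astrocytes become reactive, and myelin and axons are damaged. Calcitriol is the hormonal form of vitamin D. It binds the vitamin D receptor, a nuclear receptor that pairs with retinoid X receptors on DNA and induces, among other genes, Cyp24a1, the enzyme that breaks calcitriol down.

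The arrays measured 1 signal per probe set, which is given here after scaling of all arrays to a common mean of 194 units, with a floor of 19.4 units under which no level was read. A rise from naive arrays of which any lay at the floor is therefore a lower bound. Exact zeros in the deposited values, which often belonged to probe sets that were bright on the other arrays, were taken as missing. Across probe sets, pairs of naive arrays correlated at 0.834 to 0.908 and pairs of calcitriol arrays at 0.917 to 0.952 on the log2 scale. The tissue label was borne out by neural markers above the floor on every measured array, with the neuron list adding up to at least 18259 units over 60 genes and the oligodendrocyte and myelin list to at least 5417 units over 17 genes. The array's beta-actin controls gave a 5′ minus 3′ log2 difference of -0.05 ± 0.19 (SD, n = 3) on naive and -0.67 ± 0.16 (SD, n = 3) on calcitriol arrays, without overlap (exact two-sided permutation test, p = 0.1, the lowest value a 3 by 3 design can reach, and 0.1 when adjusted over 2 controls). The Gapdh controls gave 0.59 ± 0.02 (SD, n = 2) and 0.27 ± 0.13 (SD, n = 3), also without overlap (exact permutation test, p = 0.1, again the lowest possible). This measure of how far labelled RNA reached toward the 5′ end thus moved with the groups compared here, and its part in the results was not tested. On placebo arrays the beta-actin difference was -0.80 ± 0.35 (SD, n = 3).

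Many more genes were higher than lower in calcitriol-treated EAE, and the rises were larger. Of 12172 probe sets tested in a limma fit over all 9 arrays, 327 (2.69%) passed a Benjamini-Hochberg adjusted p of 0.05, 254 of them higher and 73 lower in calcitriol-treated EAE. They stood for 164 genes higher (2.01% of 8168 genes tested) and 61 lower (0.747%), with 46 higher and 5 lower probe sets that had no single gene symbol. Groups did not overlap in 17.1% of all probe sets tested and in all 327 that passed. A change of 2-fold or more was seen in 214 rises and 40 falls, and of 4-fold or more in 102 rises and 3 falls. The median change was 1.72 log2 among probe sets that rose and 1.06 log2, downward, among those that fell, against a median of -0.03 log2 over all probe sets. The median SE of a difference was 0.28 log2 (n = 3 per group), with a 95% interval of 0.61 log2 to either side.

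**Figure D1:**
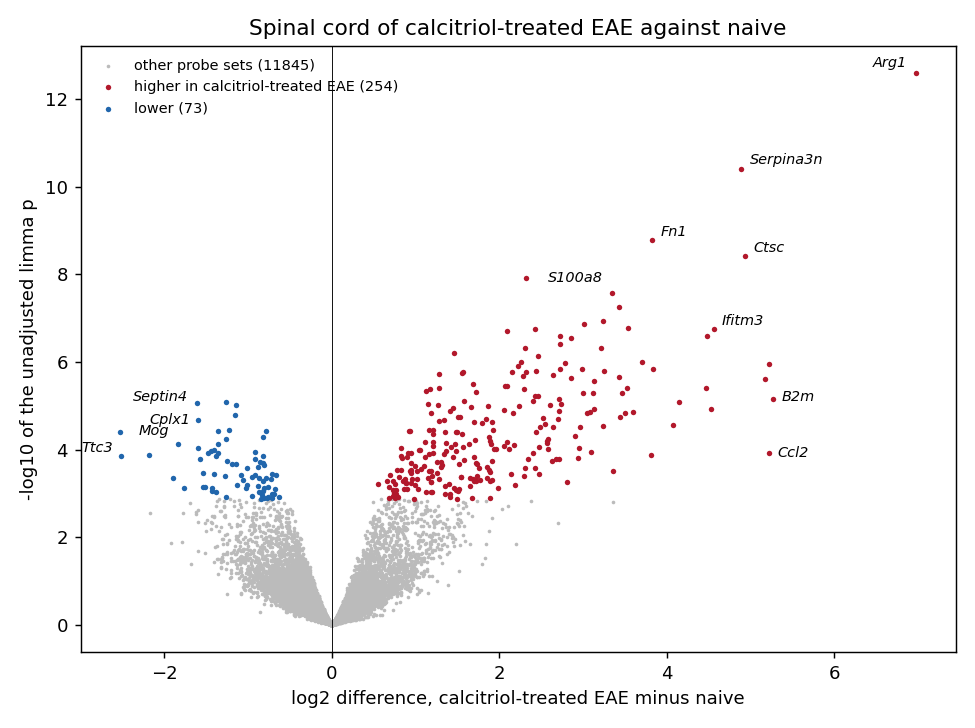
Each point is 1 of 12172 probe sets. The x axis is the log2 difference of calcitriol-treated EAE minus naive cord and the y axis the -log10 of the unadjusted limma p. Red points (254) are higher and blue points (73) lower at a Benjamini-Hochberg adjusted p under 0.05. The rises reach 6.97 log2 (Arg1), while the largest fall of a named gene, Ttc3, lies at -2.51 log2.

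The count rested on single arrays to a degree that differed between the directions. It was 151 without calcitriol replicate 8, 214 without naive replicate 3 and 540 without naive replicate 2. Falls alone numbered 18 without calcitriol replicate 8, 32 without naive replicate 3, 36 without calcitriol replicate 6, 113 without naive replicate 4 and 134 without naive replicate 2. Rises alone numbered 133 without calcitriol replicate 8 and 406 without naive replicate 2. Of the 164 genes that rose, 85 passed with every array left out in turn, and of the 61 that fell, 15 did. Rises made up 77.7% of the calls after scaling and 91.4% on the values as deposited, where the median of all probe sets moved from -0.03 to 0.09 log2.

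Macrophage and microglia genes were the list with the most genes called higher. Of its 37 genes 17 rose, 0 fell and 20 were not called. At an unadjusted p under 0.05, 27 were higher and 0 lower, where 1551 of 12172 probe sets passed that mark in either direction. As background for this and all later list counts, 2.01% of all genes were called higher and 0.747% lower. The list's median difference was 1.04 log2, with 33 of 37 above 0, beside a median of -0.03 log2 and 3749 of 8168 above 0 over all genes. The list's summed signal over 36 genes was 5742 to 5983 units on naive and 12563 to 20685 units on calcitriol arrays. In whole tissue, more or fewer cells of a type and more or less RNA per cell cannot be told apart, here and in all results that follow.

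Arg1, the arginase that splits arginine into ornithine and urea and marks alternatively activated macrophages, had the largest rise of all. On all 3 naive arrays it lay at the floor, and it read 2387, 1942 and 3107 units on calcitriol replicates 6, 7 and 8. This was a rise of at least 125-fold, or 6.97 ± 0.20 log2 (SE, with 3 arrays in each group, limma adjusted p = 3.15e-09). Lyz2, the lysozyme of myeloid cells, likewise lay at the floor in naive cord and read 622, 206 and 641 units, a rise of at least 22.4-fold (limma adjusted p = 0.000211). Cd53, a tetraspanin of leukocytes, went from the floor to 216, 200.2 and 484 units, at least 14.2-fold (adjusted p = 0.000613). Lgals3, the galactose-binding lectin galectin-3 of activated phagocytes, went from the floor to 426, 247 and 757 units, at least 22.1-fold (adjusted p = 0.00101). For each of these 4 genes the groups were far apart and the call held without each array in turn. Arrays set to the floor show no spread, so the SE and p of these 4 genes may be too small. Every naive array lay at the floor in 22 of the 254 probe sets that rose, and the same holds for them.

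Chil3, a chitinase-like protein that macrophages and neutrophils secrete, was already above the floor in naive cord, at 72.4, 64.1 and 111 units on replicates 2, 3 and 4. On calcitriol replicates 6, 7 and 8 it read 1446, 797 and 2448 units, with no overlap, a 17.6-fold rise (4.14 ± 0.55 log2, SE, limma adjusted p = 0.00157). Itgam, the CD11b integrin chain of myeloid cells, read 33.7, 59.4 and 19.4 units on naive and 229, 129 and 280.2 units on calcitriol arrays (2.58 ± 0.45 log2, SE, limma adjusted p = 0.00798, and 0.0623 without calcitriol replicate 8). Its partner chain Itgb2 rose by 1.47 log2. Other members that rose and kept the call without each array were Cd52 (2.78 log2), a short glycoprotein of leukocyte surfaces, Ly86 (2.22 log2), the MD-1 partner of a Toll-like receptor homologue, Mpeg1 (1.93 log2), a pore-forming protein of macrophages, and Lcp1 (1.56 log2), an actin bundler of leukocytes. The inhibitory Fc receptor Fcgr2b rose by 2.65 log2, on a probe set of a kind that can bind related transcripts.

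Several familiar microglial genes did not pass. Cx3cr1, the fractalkine receptor that marks resting microglia, read 412, 435 and 496 units on naive and 425, 430.4 and 472 units on calcitriol arrays, and the groups overlapped. Its difference was -0.01 ± 0.14 log2 (SE, 95% interval -0.32 to 0.29, limma adjusted p = 0.985). Csf1r, the receptor that microglia and macrophages need to survive, stood at 0.58 ± 0.18 log2 (adjusted p = 0.135), and Aif1, the calcium-binding protein Iba1, at 0.68 ± 0.30 log2 (adjusted p = 0.372). Adgre1, the F4/80 antigen, stood at 0.34 ± 0.58 log2 (adjusted p = 0.881). Its signals were low and scattered, at 29.7, 59.3 and 100.4 units on naive and 31.9, 173 and 65.0 units on calcitriol arrays.

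**Figure D2:**
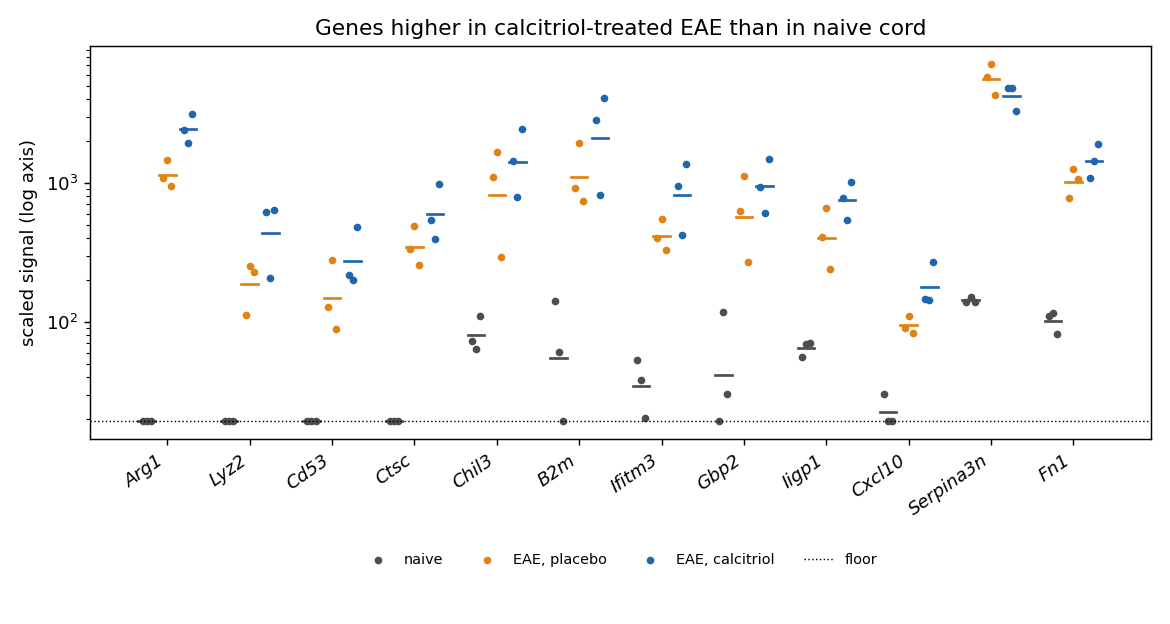
Scaled signal of 12 genes that were higher in calcitriol-treated EAE, on a log axis. Each point is 1 array (grey naive, orange placebo-treated EAE, blue calcitriol-treated EAE), short lines are means of the log2 values of 3 arrays, and the dotted line is the floor of 19.4 units. All naive points of Arg1, Lyz2, Cd53 and Ctsc lie on the floor, and no blue point overlaps a grey one.

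Of 32 genes on the interferon response list, 12 rose, 0 fell and 20 did not pass, with a median of 1.19 log2 and 29 of 32 above 0. The share called higher over all genes was 2.01%. The list holds genes that type I or type II interferons switch on: the guanylate-binding proteins and immunity-related GTPases, which attack vacuoles of intracellular microbes, the Ifit proteins, which bind foreign RNA, and membrane proteins that block viral entry. The interferon-stimulated response element to which STAT and IRF factors bind contains 2 GAAA units, here searched as GAAANNGAAA on either strand, overlapping matches included. In RefSeq promoters (mouse build GRCm38.p6, 250 bases before to 50 after the gene start), 1079 of 27025 genes (3.99%) held this motif, and 254 of 6508 genes tested here (3.90%). Of the genes that rose, 129 had a promoter in the table and 22 of them (17.1%) held the motif. Of the 47 genes that fell and had a promoter, 1 did (2.13%). Of the 12 interferon response genes that rose, 10 had a promoter and 9 of those held the motif. The 1 without it was Ifitm1, whose rise (1.84 log2) also kept its call without each array. These 9 are among the 22 above. The list was drawn up from genes that interferons induce, so its members may hold the motif with or without a rise. The share among members that did not pass was not counted, and what raised these genes was not tested.

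The 200 bases before the start are shown for 4 genes whose rise kept its call without each array, to let the motif be seen in its setting. All 4 hold the motif, so they do not stand for all genes that rose, and B2m is from the class I list. The sequences are written 5′ to 3′ on the gene's strand, with matches in capitals. TTTCNNTTTC is the same motif read from the other strand, and a match is a match of letters, not a shown binding site.
Gbp2 (chr3:142620463-142620662, plus strand): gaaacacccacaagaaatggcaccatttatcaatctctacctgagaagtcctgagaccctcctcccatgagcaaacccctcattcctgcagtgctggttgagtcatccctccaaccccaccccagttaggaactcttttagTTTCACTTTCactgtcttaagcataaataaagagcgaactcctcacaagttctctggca
Ifit3 (chr19:34583329-34583528, plus strand): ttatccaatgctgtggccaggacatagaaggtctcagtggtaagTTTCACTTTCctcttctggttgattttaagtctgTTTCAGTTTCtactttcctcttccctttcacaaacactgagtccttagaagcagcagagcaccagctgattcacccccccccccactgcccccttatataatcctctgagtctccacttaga
Irgm1 (chr11:48871421-48871620, minus strand): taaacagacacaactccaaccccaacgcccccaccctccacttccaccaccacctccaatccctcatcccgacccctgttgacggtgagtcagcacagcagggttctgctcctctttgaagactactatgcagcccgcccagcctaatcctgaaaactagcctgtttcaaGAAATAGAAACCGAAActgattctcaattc
B2m (chr2:122147487-122147686, plus strand): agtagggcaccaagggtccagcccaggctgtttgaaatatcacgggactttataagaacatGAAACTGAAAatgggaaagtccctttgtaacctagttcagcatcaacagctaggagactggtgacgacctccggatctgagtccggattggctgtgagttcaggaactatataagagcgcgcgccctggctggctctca

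Of these, Gbp2, a guanylate-binding protein, read 19.4, 118 and 30.5 units on naive replicates 2, 3 and 4 and 931, 609 and 1490.3 units on calcitriol replicates 6, 7 and 8. Its rise was 22.9-fold (4.52 ± 0.63 log2, SE, limma adjusted p = 0.00193), and the groups did not overlap although the naive arrays were spread widely. Ifit3 went from 39.3, 34.0 and 30.8 to 222, 131 and 394 units (2.71 ± 0.35 log2, SE, adjusted p = 0.00143). Irgm1, an immunity-related GTPase, was at or near the floor on naive arrays (19.4, 19.4 and 32.2 units) and read 199.7, 104 and 276 units on calcitriol arrays (2.96 ± 0.45 log2, SE, adjusted p = 0.0037). Ifitm3, a membrane protein that restricts viral entry, rose by 4.56 ± 0.42 log2 (SE, adjusted p = 0.000183), from 53.2, 38.3 and 20.5 to 957, 419 and 1361 units. Iigp1, another immunity-related GTPase, rose by 3.53 ± 0.32 log2 (SE), from 55.7, 69.8 and 70.7 to 784, 538 and 1008 units. Gbp3 (2.44 log2) and Rsad2 (2.05 log2), the antiviral enzyme viperin, also kept their calls without each array. In every one of these genes calcitriol replicate 7 was the lowest of the 3 calcitriol arrays.

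The rise of 3 other interferon genes rested on single arrays. Ifit1 lay at the floor in naive cord and read 191, 59.1 and 168 units on calcitriol arrays, at least 6.38-fold (limma adjusted p = 0.011, but 0.0603 without calcitriol replicate 6 and 0.0781 without calcitriol replicate 8). Isg15, a ubiquitin-like modifier, rose by 1.28 log2 (adjusted p = 0.023), and lost the call without naive replicate 3 (0.104), calcitriol replicate 6 (0.105) or calcitriol replicate 8 (0.124). Igtp rose by 1.20 log2 (adjusted p = 0.0376) and lost the call without calcitriol replicate 6 (0.147), calcitriol replicate 8 (0.193), naive replicate 2 (0.0502), naive replicate 3 (0.114) or placebo replicate 1 (0.0699). The transcription factors that relay interferon signals did not pass: Irf7 stood at 1.91 ± 0.53 log2 (adjusted p = 0.0899) and Irf8 at 0.58 ± 0.15 log2 (adjusted p = 0.0761). Of 23 JAK-STAT and SOCS genes 0 passed the limma test in either direction, with a median of 0.13 log2. At an unadjusted p under 0.05, 8 of them were higher and 1 lower, and with array weights 5 rose.

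Antigen presentation through MHC class I rose at its light chain and at a few partners. B2m, the light chain that every classical class I molecule needs to reach the surface, read 141, 60.6 and 19.4 units on naive and 2832, 813 and 4104 units on calcitriol arrays, a 38.5-fold rise (5.27 ± 0.69 log2, SE, limma adjusted p = 0.00143). The spread within both groups was wide, and the groups did not overlap, which held for all 327 probe sets called. Of 18 class I and peptide loading genes 4 rose, 0 fell and 14 did not pass, with a median of 0.51 log2 and 13 of 18 above 0. The others that rose were the heavy chain H2-D1 (3.05 log2), the immunoproteasome subunit Psmb9 (2.18 log2, adjusted p = 0.0504 without calcitriol replicate 8) and Psme1 (2.10 log2), a proteasome activator subunit. Outside the list, the class I heavy chain genes H2-K2 (3.43 log2), H2-Q4 (3.50 log2) and H2-Bl (1.52 log2) rose, while H2-D4 (-0.87 log2, adjusted p = 0.038) and H2-T18 (-0.71 log2, adjusted p = 0.0199) fell. Both falls were lost without naive replicate 3, naive replicate 4, calcitriol replicate 7 or calcitriol replicate 8, that of H2-D4 also without placebo replicate 5 or 10, and that of H2-T18 also without calcitriol replicate 6. The probe sets of H2-D1 and of these 5 genes are of kinds that can bind several near-identical family members, so which heavy chains rose or fell is uncertain. H2-K1 stood at 0.77 ± 0.23 log2 (adjusted p = 0.125), and the peptide transporter Tap1 at 1.00 ± 0.24 log2 (adjusted p = 0.053).

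For MHC class II, the genes called higher were Cd74, Ctss, Ifi30, Lgmn and H2-Ea, of which H2-Ea alone encodes a class II chain and had calcitriol replicate 8 missing. Of 14 genes 5 rose, 0 fell and 9 did not pass, with a median of 0.64 log2 and 12 of 14 above 0. The number that rose was 3 without naive replicate 3 and 2 without calcitriol replicate 6 or calcitriol replicate 8. Cd74, the invariant chain that escorts class II molecules, read 120.0, 89.0 and 101 units on naive and 780.4, 282 and 1013 units on calcitriol arrays (2.56 ± 0.43 log2, SE, limma adjusted p = 0.00668). Ctss, the cathepsin that trims this chain, read 282, 186 and 175 and 1556, 996 and 2215 units (2.85 ± 0.27 log2, SE, adjusted p = 0.000222). Both kept the call without each array and neither overlapped between groups. The chains H2-Aa, H2-Ab1 and H2-Eb1 stood at 1.10 ± 0.31, 0.68 ± 0.55 and 0.56 ± 0.16 log2 (adjusted p = 0.101, 0.696 and 0.0994).

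Of 32 genes on the cathepsin and lysosome list 10 rose, 0 fell and 22 did not pass, with a median of 0.46 log2 and 28 of 32 above 0. Ctsc, the dipeptidyl peptidase that activates serine proteases of leukocyte granules, lay at the floor in naive cord and read 538, 393 and 987 units on calcitriol arrays, at least 30.6-fold higher (4.93 ± 0.32 log2, SE, limma adjusted p = 1.18e-05). Ctsz was also at the floor in naive cord and read 117, 113 and 210.4 units, at least 7.24-fold higher (adjusted p = 0.000714). Ctsl rose by 2.30 ± 0.23 log2 (SE), Ctsh by 2.09 ± 0.26 log2 (SE) and Cstb, the cytosolic cathepsin inhibitor stefin B, by 1.70 ± 0.25 log2 (SE), and each kept its call without each array. Ctsd, the main aspartic protease of lysosomes, stood at 0.65 ± 0.20 log2 (adjusted p = 0.139), Ctse at -0.53 ± 0.37 log2 (adjusted p = 0.618) and Cst3, the secreted inhibitor cystatin C, at -0.32 ± 0.20 log2 (adjusted p = 0.577). Ctss and Lgmn are on the class II list as well, so the lists are not independent of each other.

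Of 36 chemokines and receptors 7 rose, 1 fell and 28 did not pass, with a median of 0.39 log2. Ccl2, the main attractant of monocytes, lay at the floor in naive cord and read 699, 408 and 1329 units on calcitriol arrays, at least 37.3-fold higher (5.22 ± 0.93 log2, SE, limma adjusted p = 0.00906). Without calcitriol replicate 8 its adjusted p was 0.0675, and the list then held 3 genes that rose. Ccl7, a related attractant, also went from the floor to 107, 104 and 194 units, at least 6.66-fold higher (adjusted p = 0.00169). Cxcl10, an interferon-induced attractant of T cells, went from 30.1, 19.4 and 19.4 to 146, 143 and 271 units (2.99 ± 0.34 log2, SE, adjusted p = 0.000613), and Ccl9 rose by 2.46 ± 0.26 log2 (SE). Ccl7, Cxcl10 and Ccl9 kept the call without each array. Other chemokines that attract monocytes did not pass, with Ccl12 at 1.06 ± 0.32 log2 (adjusted p = 0.118), Ccl5 at 1.08 ± 0.44 log2 (adjusted p = 0.313) and Ccl8 at 0.11 ± 0.18 log2 (adjusted p = 0.871). The member that fell was Cx3cl1, the membrane-bound fractalkine of neurons (-0.68 log2, adjusted p = 0.0329), a call that was lost without each calcitriol array, without naive replicate 3 and without placebo replicate 5.

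The 54 cytokines and receptors had a median of 0.19 log2. Of them 3 rose, where 2.01% of all genes were called higher, 0 fell and 51 did not pass. The number was 0 without calcitriol replicate 8 and 1 without naive replicate 3 or calcitriol replicate 7. Il1rn, the natural antagonist of the interleukin-1 receptor, read 34.3, 44.0 and 30.1 units on naive and 308, 214 and 428 units on calcitriol arrays (3.09 ± 0.55 log2, SE, limma adjusted p = 0.00872, and 0.0654 without calcitriol replicate 8). Il1b stood at 2.37 ± 0.58 log2 (adjusted p = 0.0531), Il6 at 0.96 ± 0.56 log2 (adjusted p = 0.535) and Tnf at -0.11 ± 0.31 log2 (adjusted p = 0.939). The Tnf signals, 102, 80.6 and 123 units on naive and 106, 87.1 and 86.6 units on calcitriol arrays, overlapped.

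Complement rose at the C1q chains. C1qb read 60.5, 76.6 and 82.7 units on naive and 368, 419 and 723 units on calcitriol arrays (2.73 ± 0.27 log2, SE, limma adjusted p = 0.000285). C1qc rose by 2.10 ± 0.20 log2 (SE) and C1qa by 1.68 ± 0.20 log2 (SE), and the 3 genes, which encode the chains of 1 molecule made largely by microglia and macrophages in the cord, kept their calls without each array. Of 15 complement genes 4 rose, 0 fell and 11 did not pass. The fourth, Serping1, the C1 inhibitor, stood just inside the threshold (0.75 log2, adjusted p = 0.0488) and lost its call without any one of 8 of the 9 arrays. Of 20 neutrophil genes 4 rose and 0 fell: S100a8 (3.34 ± 0.26 log2, SE, from 82.6, 79.8 and 64.9 to 672, 579.9 and 1141 units), its partner S100a9 (1.88 log2), the siderophore-binding Lcn2 (2.15 log2) and the decoy receptor Il1r2 (1.49 log2). Without naive replicate 3, calcitriol replicate 7 or calcitriol replicate 8 the number was 2. Granule enzymes of neutrophils did not pass, with Mpo at 0.35 ± 0.36 log2 (adjusted p = 0.779) and Elane at -0.14 ± 0.22 log2 (adjusted p = 0.871).

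Of 25 T cell genes 0 rose, where 2.01% of all genes were called higher, so that under 1 call would come from the overall share. In the same list 1 gene fell in the limma test, with a median of -0.14 log2 (at an unadjusted p under 0.05, 1 was higher and 2 lower), and the 1 that fell, Thy1, is also a surface protein of neurons. Its call was lost without naive replicate 3 or 4, placebo replicate 5 or any one calcitriol array. Against naive, 21 of the 25 T cell genes lay below 0 and 4 above, beside 4419 of 8168 below 0 over all genes. The T cell list's summed signal over 25 genes ran from 5935 to 6259 units in naive arrays. It ran from 5373 to 5618 in placebo and from 4832 to 5418 in calcitriol arrays, without overlap with naive. Cd3e, a chain of the T cell receptor complex, read 118, 144 and 95.1 units on naive and 111, 88.4 and 81.7 units on calcitriol arrays, with overlap (-0.34 ± 0.25 log2, SE, 95% interval -0.88 to 0.21, limma adjusted p = 0.655), and Cd4 stood at -0.04 ± 0.13 log2 (95% interval -0.33 to 0.24, adjusted p = 0.942). Of 18 B and plasma cell genes 0 passed in either direction (1 higher and 1 lower at an unadjusted p under 0.05, median 0.02 log2, summed signal 3731 to 3963 units on naive and 3518 to 3635 on calcitriol arrays). Without calcitriol replicate 7, 1 B cell gene, the lectin-like receptor Cd72, rose (adjusted p = 0.0441, against 0.299 with all arrays). The lists of mast cell (12 genes, median -0.15 log2), skeletal muscle (20 genes, 0.01 log2), erythroid (7 genes, 0.13 log2) and endothelial and leukocyte adhesion genes (29 genes, 0.11 log2) also held 0 genes that passed in limma. At an unadjusted p under 0.05 they held 0 higher and 1 lower, 1 and 0, 0 and 0, and 2 and 1, in that order. Without naive replicate 2, 2 erythroid genes rose. Summed signals were 1913 to 2330 units on naive and 2032 to 2194 on calcitriol arrays for skeletal muscle, and 2032 to 3113 and 2533 to 2757 for erythroid genes.

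Astrocyte genes moved in both directions. Of 24 genes 4 rose, 2 fell and 18 did not pass, with a median of -0.04 log2 whose sign changed between settings (-0.12 to 0.07 log2). Serpina3n, a protease inhibitor of reactive astrocytes, had the smallest p of all genes after Arg1. It read 139, 151 and 139 units on naive and 4832, 4786 and 3294 units on calcitriol arrays, a 29.6-fold rise (4.89 ± 0.21 log2, SE, limma adjusted p = 2.37e-07). Mt2, a metallothionein that binds zinc and copper, rose by 1.89 ± 0.31 log2 (SE, adjusted p = 0.00629), from 2272, 1199.8 and 1199 to 4563, 8056 and 4503 units, the highest with calcitriol replicate 7. The intermediate filament gene Gfap, the classical marker of reactive astrocytes, stood at 0.44 ± 0.25 log2 (adjusted p = 0.52), with naive replicate 2 missing. It read 1676, 1513 and 914 units on calcitriol arrays and 2332, 2715 and 2309.7 units on placebo replicates 1, 5 and 10. In placebo-treated EAE against naive, Gfap did pass, at 1.32 log2 (limma adjusted p = 0.0235). Sparcl1, a matrix protein of astrocytes, fell by 1.40 log2 (limma adjusted p = 0.0199). The gap junction gene Gja1, on a probe set of a kind that can bind related transcripts, fell by 0.95 log2 (adjusted p = 0.0451). Both falls were lost without naive replicate 3, calcitriol replicate 6 or calcitriol replicate 8, and that of Gja1 also without naive replicate 4 or placebo replicate 1 or 10, while 0 astrocyte genes fell on the values as deposited.

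Matrix and vessel-wall genes included a few large rises. Fn1, fibronectin, read 110.4, 115 and 82.5 units on naive and 1090.1, 1439 and 1917 units on calcitriol arrays (14.2-fold, 3.83 ± 0.23 log2, SE, limma adjusted p = 6.83e-06). Col4a1, a chain of basement membrane collagen, went from 110.5, 129.6 and 117 to 337, 396 and 327 units (1.57 ± 0.18 log2, SE, adjusted p = 0.000613). S100a6, a calcium-binding protein of fibroblasts and glia, rose by 3.42 ± 0.28 log2 (SE), and Timp1, an inhibitor of matrix metalloproteinases, by 0.93 ± 0.14 log2 (SE), while another Timp1 probe set had the other sign. Of 47 fibroblast, meninges and matrix genes 6 rose, where 2.01% of all genes were called higher, 0 fell and 41 did not pass. The list's median was 0.15 log2. Fibrillar collagens did not pass, Col1a1 at -0.04 ± 0.19 log2 and Col3a1 at 0.70 ± 0.29 log2 (adjusted p = 0.971 and 0.316). Among 22 lipid transport and storage genes 2 rose, the lipocalin Apod (1.79 ± 0.27 log2, SE) and the lipid droplet protein Plin2 (1.86 ± 0.25 log2, SE), and 1 fell, the phospholipid transfer protein Pltp (-1.27 log2), whose call was lost without any one of naive replicate 3 and calcitriol replicates 6, 7 and 8.

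Of 29 genes on the glucocorticoid-responsive list 10 rose and 0 fell (median 0.36 log2), and 6 rose without calcitriol replicate 8. The members that rose were Sgk1, Cebpb, Cebpd, Nfkbia, Mt1, Mt2, Lcn2, Plin2, Anxa1 and Il1r2. Inflammatory signals also induce several of these, Cebpb, Cebpd, Nfkbia and Lcn2 among them, and what raised them was not tested. The members that rose included the C/EBP factors Cebpb (3.08 ± 0.43 log2, SE, from 19.4, 35.1 and 19.4 to 182, 153 and 286 units) and Cebpd (2.73 ± 0.26 log2, SE, from 43.6, 50.4 and 31.5 to 223, 360.4 and 249 units). Fkbp5 and Tsc22d3, which glucocorticoids induce in most cells, stood at 1.19 ± 0.61 and -0.20 ± 0.29 log2 (limma adjusted p = 0.467 and 0.858). Of 21 immediate early genes 4 rose (2 without calcitriol replicate 8), among them Jund (1.53 ± 0.21 log2, SE) and Fos (1.57 ± 0.29 log2, SE, adjusted p = 0.0551 without calcitriol replicate 7, while another Fos probe set had the other sign). Atf3, a stress-induced factor of the same list, stood at -0.46 ± 0.25 log2 (adjusted p = 0.481), Egr1 at 0.35 ± 0.22 log2 (adjusted p = 0.569) and Jun at -0.03 ± 0.16 log2 (adjusted p = 0.977). Of 22 heat shock genes 0 passed in either direction in limma (median -0.06 log2, with 3 higher and 1 lower at an unadjusted p under 0.05), although 2 rose without naive replicate 2. Of 30 antioxidant and metal-binding genes 4 rose (Mt1, Mt2, Txn1 and Hmox1), and the number was 1 without calcitriol replicate 6 or 8 and 2 without naive replicate 3, naive replicate 4 or placebo replicate 1.

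Of 31 cytosolic ribosomal protein genes 5 rose and 0 fell, with a median of 0.46 log2 and 26 of 31 above 0. Rplp0, a protein of the ribosomal stalk, went from 889, 856 and 825 to 2155, 1793 and 2345 units (1.28 ± 0.15 log2, SE, limma adjusted p = 0.000646), and Rpl10a rose by 1.21 ± 0.19 log2 (SE). The count was 15 without naive replicate 2, and 3 without naive replicate 3, naive replicate 4, calcitriol replicate 7, calcitriol replicate 8, placebo replicate 1 or placebo replicate 10. Actb, cytoplasmic beta-actin, often used to normalise other genes, was itself higher, at 638, 502 and 845 units on naive and 1899, 1869.9 and 3818 units on calcitriol arrays (1.88 ± 0.30 log2, SE, adjusted p = 0.00523), on a probe set that can bind other actins.

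Of 19 genes of oligodendrocytes and myelin 6 fell, where 0.747% of all genes were called lower, 0 rose and 13 did not pass. At an unadjusted p under 0.05, 11 were lower and 0 higher, where 1551 of 12172 probe sets passed that mark in either direction. The median was -0.61 log2 and 17 of 19 lay below 0, beside 4419 of 8168 below 0 over all genes. Mog, a glycoprotein on the outer face of myelin and a target of autoimmunity in EAE, read 193, 174 and 197 units on naive and 50.8, 73.1 and 39.3 units on calcitriol arrays. It was 3.57-fold lower (-1.84 ± 0.31 log2, SE, limma adjusted p = 0.00677), with no overlap. Car2, the carbonic anhydrase of oligodendrocytes, went from 1288, 803 and 576 to 279.9, 301 and 377 units (-1.41 ± 0.25 log2, SE, adjusted p = 0.00838), and Gsn, the actin-severing protein gelsolin, from 397, 357 and 309 to 174, 180.2 and 207 units (-0.92 ± 0.16 log2, SE, adjusted p = 0.00894). These 3 falls kept their calls without each array. Mal, Qdpr and Mag, a myelin proteolipid, a pteridine reductase and a myelin glycoprotein, fell by 1.53, 1.51 and 0.89 log2 (adjusted p = 0.019, 0.0307 and 0.0305), but these calls were lost without calcitriol replicate 6 or 8, so that the list then held 3 falls. Those of Mal and Qdpr were also lost without naive replicate 3, those of Qdpr and Mag without placebo replicate 1 or 10, and that of Mag without calcitriol replicate 7 or placebo replicate 5.

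Among the 13 that did not pass were major myelin genes. Cnp and Mobp, which encode abundant myelin proteins, stood at -0.01 ± 0.38 and -0.03 ± 0.32 log2 (95% intervals -0.84 to 0.82 and -0.74 to 0.68, limma adjusted p = 1 and 0.988). Mbp, myelin basic protein, stood at -0.61 ± 0.24 log2 (adjusted p = 0.294), and Ugt8a, which makes the myelin lipid galactosylceramide, at -1.33 ± 0.35 log2 (adjusted p = 0.0745). Relative to the naive mean, the median of the list stood at 0.32, -0.13 and -0.21 log2 in naive replicates 2, 3 and 4. In calcitriol replicates 6, 7 and 8 it stood at -0.78, -0.62 and -0.77 log2. Naive replicate 2 thus stood highest, and the groups did not overlap. Across settings the median difference lay between -0.75 and -0.43 log2.

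Of 70 neuron and synapse genes 9 fell, where 0.747% of all genes were called lower, 0 rose and 61 did not pass. At an unadjusted p under 0.05, 34 were lower and 1 higher, where 1551 of 12172 probe sets passed that mark in either direction. The median was -0.53 log2 and 59 of 70 lay below 0. Cplx1, the presynaptic protein complexin 1, read 3218, 1829.7 and 1779 units on naive and 785, 729 and 667 units on calcitriol arrays (3.02-fold lower, -1.59 ± 0.23 log2, SE, limma adjusted p = 0.00275). Pdyn, the precursor of the opioid peptide dynorphin, went from 965, 1066 and 922 to 574, 596 and 544 units (-0.78 ± 0.12 log2, SE, adjusted p = 0.0042), a small difference with very tight replicates. Both kept the call without each array. Nefm, a neurofilament subunit of axons, fell by 1.38 log2 (adjusted p = 0.0384), from 3314, 1549 and 1208 to 713, 779.5 and 630.5 units, and lost the call without naive replicate 3, placebo replicate 1 or 5, or any one calcitriol array. Snap25, part of the vesicle fusion machinery, stood at -1.21 ± 0.36 log2 (adjusted p = 0.12), with 3389.9, 1335 and 948 units on naive and 590.2, 841 and 702 units on calcitriol arrays. In Nefm and Snap25 naive replicate 2 lay far above the other naive arrays.

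The number of neuronal genes that fell depended on which arrays were used. It was 14 without naive replicate 4, 4 without calcitriol replicate 7 or placebo replicate 5, 3 without naive replicate 3 or calcitriol replicate 6 and 2 without calcitriol replicate 8. On the values as deposited, with exact zeros at the floor and without the intensity trend it was 3. The list's median stayed between -0.65 and -0.39 log2 over the settings tried. By array the median was 0.29, -0.12 and -0.09 log2 in naive replicates 2, 3 and 4, against -0.65, -0.40 and -0.56 log2 in calcitriol replicates 6, 7 and 8, with no overlap. The summed signal over 60 genes was 25387 to 41900.4 units on naive and 18259 to 19717 units on calcitriol arrays.

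Of the 15 largest falls by gene, 5 kept the call without each array: Mog, Septin4, Fxyd7, Cplx1 and Car2. Septin4, a cytoskeletal septin, read 595, 397 and 336 units on naive and 117, 159 and 150.4 units on calcitriol arrays (-1.61 ± 0.22 log2, SE, limma adjusted p = 0.00166). Fxyd7, a brain-specific regulator of the sodium pump, went from 256, 223 and 170.3 to 55.9, 78.3 and 80.9 units (-1.59 ± 0.27 log2, SE, adjusted p = 0.00774). The other 10, Ttc3 with the largest fall (-2.51 ± 0.45 log2, SE, adjusted p = 0.0101) and Cpox, Vsnl1, Itgb4, Stmn1, Mal, Qdpr, Fez1, Tubb4a and Timm9, all lost the call without calcitriol replicate 8, at adjusted p of 0.0504 to 0.165. Of these 10, 6 also lost it without calcitriol replicate 6 (0.0948 to 0.143) and 6 without naive replicate 3 (0.0541 to 0.142). Of the 15 largest rises, 13 kept the call without each array, and Ccl2 and Lilr4b lost it without calcitriol replicate 8 (0.0562 to 0.0675).

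Further falls that kept the call without each array were of genes with varied roles in neural cells. Slc22a17, a receptor for lipocalin 2, read 1974, 1664 and 1563 units on naive and 806, 699 and 658 units on calcitriol arrays (-1.26 ± 0.17 log2, SE, limma adjusted p = 0.0016). Bcan, the matrix proteoglycan brevican, fell by 1.16 log2 (adjusted p = 0.00238), and Tagln3, a neuronal actin-associated protein, by 1.14 log2 (adjusted p = 0.00171). Aatk, a kinase of neurons, fell by 1.23 log2, Ndrg3 by 1.36 log2 and the transcriptional corepressor Tle5 by 0.82 log2.

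**Figure D3:**
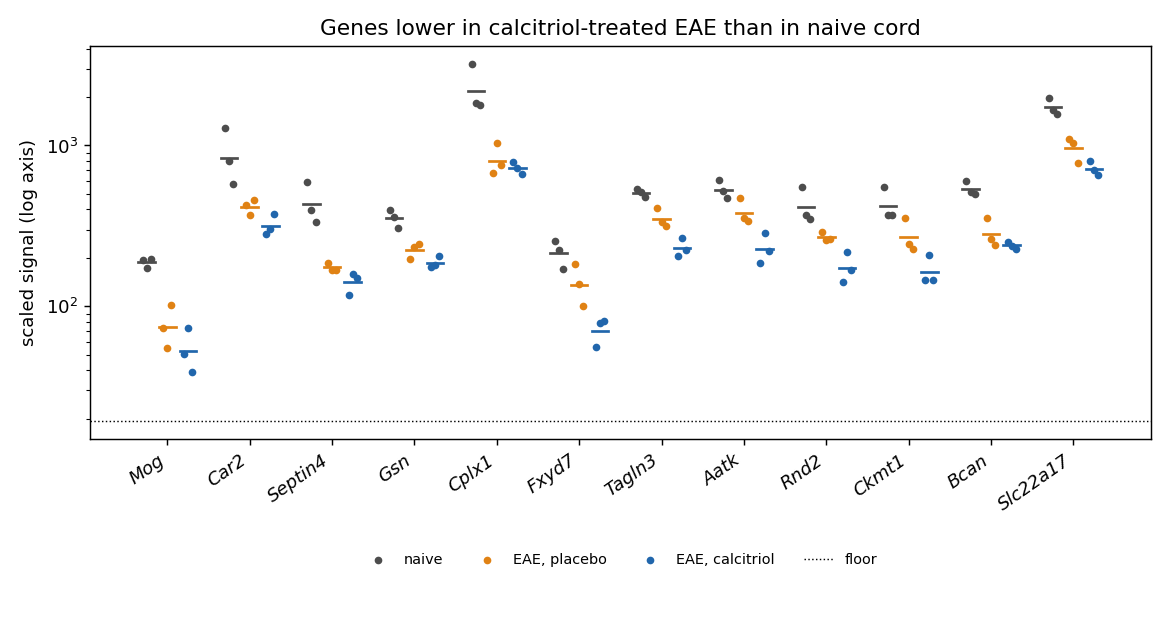
Scaled signal of 12 genes that were lower in calcitriol-treated EAE and kept the call with each array left out, on a log axis. Points are arrays and short lines means of log2 values, in the colours of the plot of rises. No blue point overlaps a grey one, and all points lie above the floor of 19.4 units.

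Of 63 oxidative phosphorylation subunits 0 passed in the limma test, and 14 were lower and 0 higher at an unadjusted p under 0.05. That mark was passed by 1551 of 12172 probe sets in either direction. The median of the subunits was -0.29 log2 with 53 of 63 below 0, and it lay between -0.40 and -0.15 log2 across settings. Of 21 glycolysis and creatine kinase genes 4 fell, where 0.747% of all genes were called lower, 0 rose and 17 did not pass, with a median of -0.08 log2 whose sign changed between settings (-0.28 to 0.19 log2). The 4 were Eno2, the neuronal enolase, Ldhb, a lactate dehydrogenase subunit, and the brain creatine kinases Ckb and Ckmt1. Ckmt1, the mitochondrial form, went from 554, 368 and 368 to 146, 208 and 147 units (-1.36 ± 0.23 log2, SE, limma adjusted p = 0.00685) and kept the call without each array, although its other probe set was opposite in sign. Ckb, the cytosolic form, went from 4467, 3261 and 4081 to 1511, 2219 and 1631 units (-1.15 ± 0.22 log2, SE, adjusted p = 0.0135, and 0.0766 and 0.0737 without calcitriol replicates 6 and 8). The count was 1 without calcitriol replicate 6 or 8 and 2 without naive replicate 3 or calcitriol replicate 7.

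Of 25 genes of vitamin D signalling and its targets, 6 h after calcitriol, 1 rose, 0 fell and 24 did not pass, with a median of 0.07 log2. The 1 that rose was Cd14, a co-receptor for bacterial lipopolysaccharide that is also a macrophage gene, from 409, 409.8 and 469 to 838, 849.8 and 963 units (1.04 ± 0.18 log2, SE, limma adjusted p = 0.00839, and 0.0557 without calcitriol replicate 8). In placebo-treated EAE against naive, Cd14 stood at 0.76 log2 (limma adjusted p = 0.0742). Vdr, the receptor, was dim, at 19.4, 50.8 and 69.5 units on naive and 71.6, 33.5 and 35.2 units on calcitriol arrays, and the groups overlapped (0.10 ± 0.56 log2, SE, 95% interval -1.13 to 1.33, adjusted p = 0.975). Cyp24a1 read 30.4, 53.0 and 107 and 75.4, 47.6 and 106 units, also overlapping (0.38 ± 0.46 log2, SE, 95% interval -0.63 to 1.39, adjusted p = 0.819), and its other probe set was opposite in sign. These intervals are wide enough to hold a change of more than 2-fold. Cyp27b1, the enzyme that makes calcitriol, and Rxra, a partner of the receptor, were measured more closely, at -0.10 ± 0.15 log2 (95% interval -0.43 to 0.24) and -0.09 ± 0.13 log2 (95% interval -0.38 to 0.19). The vitamin D receptor's DR3 element was searched by its consensus letters in the same promoters, where 79 of 27025 genes (0.292%) held it. It was in 0 of the 129 promoters of genes that rose and 0 of the 47 of genes that fell, and in 15 of the 6508 of genes tested (0.230%), which says only that these letters are not in those windows.

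**Figure D4:**
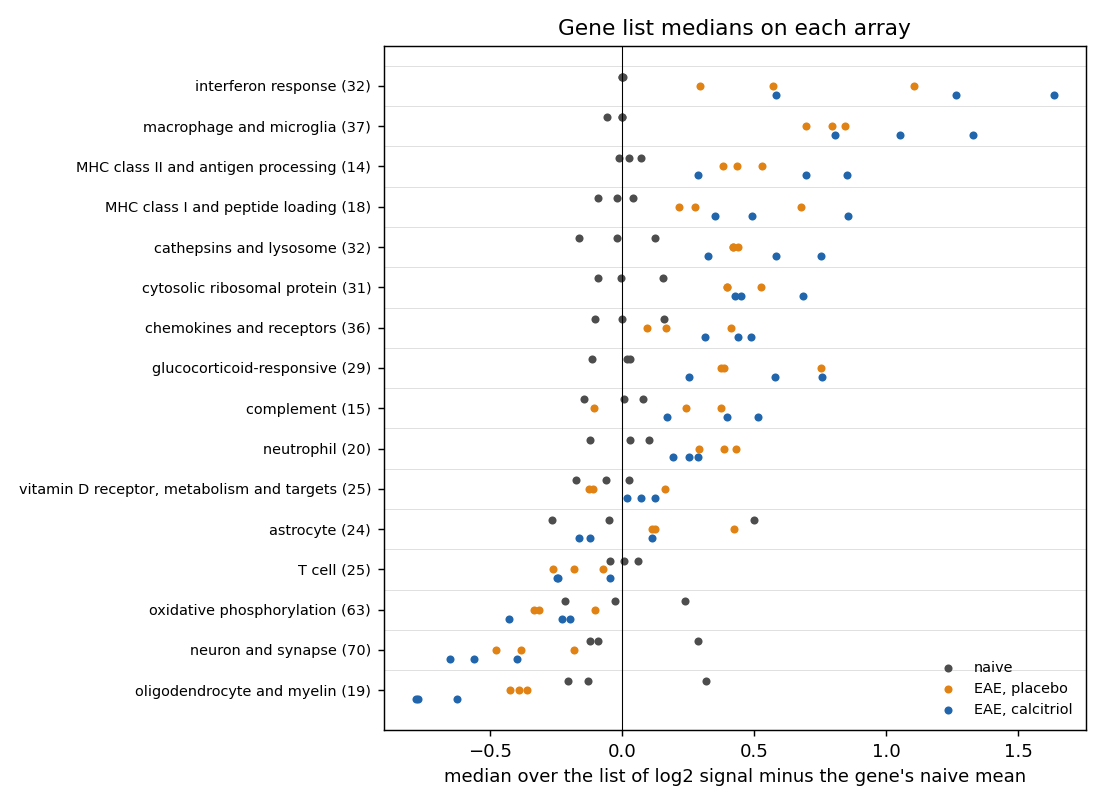
Each point is the median, over the genes of a list, of 1 array's log2 signal minus the gene's mean on naive arrays. Rows are 16 lists with their number of genes tested, and colours are grey for naive, orange for placebo-treated and blue for calcitriol-treated EAE arrays. The interferon list lies at 0.58 to 1.63 log2 on calcitriol arrays and the oligodendrocyte and myelin list at -0.78 to -0.62 log2.

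The calcitriol arrays differed among themselves in a recurring order. Of 160 genes that rose and could be ordered, calcitriol replicate 8 was the highest of the 3 in 120 and calcitriol replicate 7 the lowest in 94. Of 60 genes that fell, calcitriol replicate 8 was the lowest in 30 and calcitriol replicate 7 the highest in 37. The interferon list's medians were 1.26, 0.58 and 1.63 log2 on calcitriol replicates 6, 7 and 8, and those of the macrophage and microglia list 1.05, 0.81 and 1.33 log2. The glucocorticoid-responsive list went otherwise, at 0.25, 0.76 and 0.58 log2. Replicate 6, the one titled with D2, was the highest of the 3 in 18 of the 160 genes that rose and the lowest in 53. Among naive arrays replicate 2 was the highest in 43 of 58 genes that fell.

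Placebo-treated EAE was set beside these results. Both comparisons use the same 3 naive arrays, so their values are given side by side and are no independent support for each other. Against naive, 111 genes were higher in placebo-treated EAE (1.36%) and 10 lower (0.122%). The genes named next are among the largest rises and falls with calcitriol, a choice that favours larger differences in that group. Arg1 stood at 5.89 ± 0.20 log2 in placebo-treated and 6.97 ± 0.20 log2 in calcitriol-treated EAE (SE), Serpina3n at 5.30 ± 0.21 and 4.89 ± 0.21, B2m at 4.32 ± 0.69 and 5.27 ± 0.69, and Gbp2 at 3.80 ± 0.63 and 4.52 ± 0.63. Among falls, Cplx1 stood at -1.44 ± 0.23 and -1.59 ± 0.23 log2, Mog at -1.33 ± 0.31 and -1.84 ± 0.31, and Fxyd7 at -0.65 ± 0.27 and -1.59 ± 0.27. By list, the median was 0.64 log2 in placebo-treated and 1.19 log2 in calcitriol-treated EAE for interferon response genes. In the same order it was 0.73 and 1.04 log2 for macrophage and microglia genes. Myelin genes had -0.30 and -0.61 log2 and neuronal genes -0.33 and -0.53 log2. Other lists lay further from 0 in placebo-treated EAE. Among them were neutrophil (0.36 and 0.20 log2), astrocyte (0.21 and -0.04 log2) and T cell genes (-0.20 and -0.14 log2).

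The direct comparison of calcitriol-treated with placebo-treated EAE, the one that bears on the treatment alone, called 0 of 12172 probe sets (0.0%) in limma after Benjamini-Hochberg adjustment. The smallest adjusted p was 0.9995, and each alternative setting that kept the placebo group also gave 0 calls. The spread was pooled over all groups, including the naive arrays, which this comparison does not use. Those varied most, with a median SD of 0.348 log2 against 0.223 in placebo and 0.249 in calcitriol arrays. A fit of the EAE arrays alone was not run, so how many calls it would give is not known. An unadjusted p under 0.05 was seen in 343 of the 12172, a smaller share than the 0.05 given by that mark when nothing differs. The median 95% interval of a difference reached 0.61 log2 to either side. Some single differences were sizeable and are given as values, chosen after they were seen. Arg1 differed by 1.08 ± 0.20 log2 (SE, 95% interval 0.65 to 1.51), from 1083, 1466 and 952 units on placebo replicates 1, 5 and 10 to 2387, 1942 and 3107 units on calcitriol replicates 6, 7 and 8, with no overlap. Ifit1, which stood at 0.41 ± 0.49 log2 in placebo-treated EAE against naive, differed by 2.26 ± 0.49 log2 (95% interval 1.19 to 3.34) between the EAE groups, and Ckb, at -0.09 ± 0.22 log2 in placebo-treated EAE, by -1.06 ± 0.22 log2 (95% interval -1.53 to -0.58). Irgm1 differed by 1.58 ± 0.45 log2 and Serpina3n by -0.41 ± 0.21 log2. None of these 5 passed the adjustment.

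**Figure D5:**
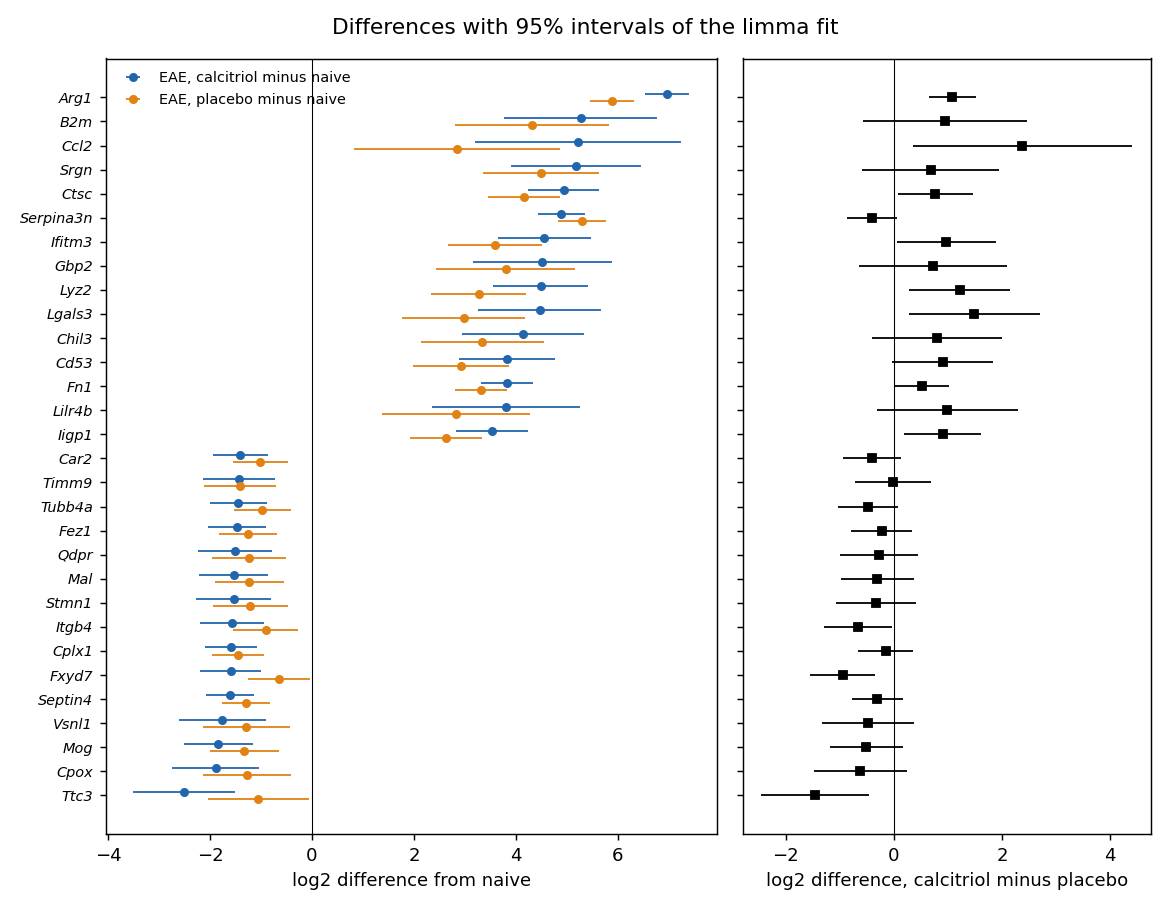
The 15 largest rises and 15 largest falls in calcitriol-treated EAE against naive, with 95% intervals of the limma fit. Choosing genes by the calcitriol difference favours larger differences in that group than in placebo-treated EAE. Left, log2 difference from naive in calcitriol-treated (blue) and placebo-treated EAE (orange). Right, log2 difference of calcitriol minus placebo, 1.08 for Arg1 and -0.41 for Serpina3n, with 0 of the 12172 probe sets past the adjusted threshold.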

How the data were processed

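Spinal cord RNA was measured on 9 one-colour oligonucleotide arrays, 3 per group, grouped by sample title. The deposited table holds linear intensity for 12488 probe sets. What the authors did to summarise and scale it is not given in the sources used. The 66 control probe sets were left out. Signals were scaled to a common mean without the lowest and highest 2% (194 units). Lower signals were set to 10% of that mean (19.4), and log2 was taken. The 763 exact zeros outside the controls were taken as missing, since 407 of 687 tested probe sets with one had a mean over 5 times the floor on their other arrays. The 12172 probe sets that exceeded this floor on 3 or more of the 9 arrays were tested with limma 3.58.1 on R 4.3.3, in 1 fit over 9 arrays with an intensity trend and 6 residual degrees of freedom. Calls were made at 0.05 after Benjamini-Hochberg adjustment over all probe sets. The spread is pooled over groups, and its median was 0.348 log2 (SD) in naive, 0.223 in placebo and 0.249 in calcitriol arrays. The fit was also run on simulated data, with independent noise of equal spread in all groups. These arrays differ from that setting, so the run says nothing of how calls depend on single arrays. Tables and plots were made with Python 3.11.15, pandas 2.3.3 and matplotlib 3.10.9.

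For 8168 genes 1 probe set was kept, preferring those without a cross-hybridisation suffix and then the brightest. Of all probe sets 10855 had 1 gene symbol in the platform annotation, 396 several and 1237 none, and symbols were checked against RefSeq. Named genes were the 15 largest rises and falls past the threshold without overlap, up to 4 members per list, and Vdr, Cyp24a1 and Actb. Any further gene was picked with its values in view. The comparison and the 34 gene lists (901 genes tested, some on several lists) were chosen with earlier results of these data known, so list counts and medians are descriptions without a test. Single values per array were compared with exact permutation tests. Alternatives were values as deposited, quantile normalization, floors at 5% and 20%, no filter, a filter on the mean, exact zeros at the floor, no intensity trend, array weights, only the 6 arrays and each array left out.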

Additional observations from a re-analysis of the deposited data

How the results depend on the processing

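The count of 327 probe sets between calcitriol-treated EAE and naive cord moved by more than 1.5 times without the intensity trend (215), with array weights (632) and with single arrays left out, where it ran from 151 (without calcitriol replicate 8) to 540 (without naive replicate 2). The 254 rises were 457 with array weights and 133 to 406 with single arrays left out. The 73 falls were less firm: 28 on the values as deposited, 39 with exact zeros at the floor, 32 without the trend, 33 in a fit of the 6 arrays alone, 175 with array weights and 18 to 134 with single arrays left out. Array weights gave naive replicate 3 a weight of 2.13 against 0.314 and 0.520 for naive replicates 2 and 4, so that the naive group then rested mostly on 1 array. The 171 probe sets of placebo-treated EAE against naive were 111 without the trend, 350 with weights and 70 to 288 with single arrays left out. The comparison of calcitriol with placebo gave 0 in every setting that kept the placebo group. Of the alternative values of named genes, 2554 kept direction and side of the threshold, 216 fell below it, 43 rose above it and 7 moved without a test. Pcsk1n, a neuronal peptide, reversed to 0.41 log2 (limma adjusted p = 0.936) with its exact zero on naive replicate 2 at the floor, which puts a probe set that is bright on both other naive arrays at the lowest value. The cause of the other shifts was not tested. No paired analysis was possible because replicate numbers run across the series and no number occurs in more than 1 group. With 3 arrays per group, a median half-width of 0.61 log2 limits what can be seen, most of all for dim genes such as Vdr.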
